A study of Mus musculus with 9 samples.

Results

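Metallothioneins and the oxidative stress response were followed through 10 genes in single nuclei of injured mouse hearts. The genes were chosen by function and name: Mt1 and Mt2, the metal importer Slc39a14, haem oxygenase Hmox1, the cystine importer Slc7a11, the glutathione synthesis genes Gclc and Gclm, and the reductases Txnrd1, Srxn1 and Nqo1. Earlier results of these data were known when they were chosen, so counts of members beside the share of all genes are a description. They are 10 of the 32285 genes in the count matrices, and each was detected. The series holds 9 libraries of nuclei from hearts of wild-type male mice aged 9 to 10 weeks, 3 libraries per group. The labels number the libraries as replicates without saying that each came from another mouse, so p-values measure the spread between libraries, which may be technical. NS-Sham mice had their chest opened and received normal saline. NS-I/R mice had the left anterior descending coronary artery tied for 45 minutes, then 24 hours of reperfusion, and also received saline. Enpa-I/R mice had the same occlusion and reperfusion and received enpatoran, an antagonist of the RNA sensor TLR7, by 2 intraperitoneal injections of 5 mg/kg. The first injection came 1 hour before occlusion, and the labels differ on the time of the second. There was no sham group given enpatoran, so its effect on the members without injury was not measured. Nuclei came from powdered heart tissue, and the labels do not say which region of the heart was taken relative to the occluded artery.

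Metallothioneins are small cysteine-rich proteins that bind zinc and copper and can take up oxidants. Their genes are switched on by zinc through the factor MTF1, which binds metal response elements in promoters, and by glucocorticoids and inflammatory signals. Slc39a14 (ZIP14) carries zinc, iron and manganese into cells and is also induced in inflammation. The other members belong to the response to oxidants and electrophiles. In it the factor NRF2, encoded by Nfe2l2, escapes its inhibitor KEAP1 and binds antioxidant response elements. Hmox1 breaks down haem to biliverdin, iron and carbon monoxide, and is also repressed by BACH1. Slc7a11 imports cystine, from which Gclc (catalytic subunit) and Gclm (modifier subunit) begin glutathione synthesis. Txnrd1 reduces cytosolic thioredoxin, Srxn1 restores overoxidised peroxiredoxins, and Nqo1 reduces quinones. Blood returning to a heart after coronary occlusion is a known source of oxidants.

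The 2 kinds of element named above were searched for in the promoters of the members, and 4 promoters are shown because they hold the matches for the genes that changed most widely. The sequences are RefSeq's on build GRCm38.p6, and each gives the 250 bases before a gene start. RefSeq promoters were matched for 7 of the 10 members, as 9 entries, since Txnrd1 has 3 starts. The metal response element core was searched as TGCACNC or TGCGCNC and the antioxidant response element core as TGACNNNGC, on both strands. Of all 32841 promoters of this length, 21.4% held the metal core and 10.2% held the antioxidant core. Capitals mark the matches, in the order 5′ to 3′ on the gene's strand.
Mt1 (chr8:94178839-94179088, plus strand): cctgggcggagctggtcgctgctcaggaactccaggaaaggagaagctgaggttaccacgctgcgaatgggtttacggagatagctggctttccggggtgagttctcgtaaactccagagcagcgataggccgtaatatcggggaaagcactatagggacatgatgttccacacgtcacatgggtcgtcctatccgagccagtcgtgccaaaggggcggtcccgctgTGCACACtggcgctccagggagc
Mt2 (chr8:94172368-94172617, plus strand): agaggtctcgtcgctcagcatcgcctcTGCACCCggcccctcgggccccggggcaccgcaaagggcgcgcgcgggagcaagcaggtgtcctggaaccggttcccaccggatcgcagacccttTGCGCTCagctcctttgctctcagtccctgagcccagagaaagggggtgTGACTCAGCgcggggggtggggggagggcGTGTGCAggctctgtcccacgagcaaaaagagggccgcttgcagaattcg
Gclm (chr3:122245307-122245556, plus strand): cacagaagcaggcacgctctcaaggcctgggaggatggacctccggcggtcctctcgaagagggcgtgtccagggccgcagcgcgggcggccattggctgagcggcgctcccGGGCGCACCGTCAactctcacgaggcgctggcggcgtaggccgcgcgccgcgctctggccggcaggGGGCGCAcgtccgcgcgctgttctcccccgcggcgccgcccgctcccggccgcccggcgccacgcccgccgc
Txnrd1, start 2 (chr10:82858956-82859205, plus strand): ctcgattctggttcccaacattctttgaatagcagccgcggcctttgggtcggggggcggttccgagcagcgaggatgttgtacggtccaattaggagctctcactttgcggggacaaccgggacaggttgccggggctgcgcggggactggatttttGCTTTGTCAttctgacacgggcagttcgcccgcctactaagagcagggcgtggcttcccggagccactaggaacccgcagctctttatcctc
Counting the base before the start as -1, Mt1 had 1 metal core beginning at -23. Mt2 had 3 metal cores, beginning at -223 and -128 on the gene's strand and at -50 on the other strand, and an antioxidant core at -79. In Gclm an antioxidant core at -134 overlapped a metal core at -138, both on the opposite strand, and a further metal core lay at -72. Txnrd1 had 1 antioxidant core, at -92 of its second listed start and on the opposite strand. Srxn1 had 1 metal core at -19, and the windows of Slc7a11 and Nqo1 and the other Txnrd1 starts held neither. These are matches of letters and not measured sites. Mt2 and Mt1 are neighbours on the chromosome.

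The libraries held 19651794 to 38970153 UMIs (counted RNA molecules) each, and 3160 to 6471 nuclei were kept per library, 41979 in all, with a median of 2365 to 3263.5 UMIs. Clustering gave 26 clusters, 25 of which were named from marker genes. The classes used most here were cardiomyocyte-like (3297, 2942 and 3194 nuclei in the sham, saline and enpatoran groups), endothelial-like (4456, 3942 and 4278), fibroblast-like (2757, 3244 and 2631) and macrophage-like nuclei (824, 1400 and 1136). Neutrophil-like nuclei made up 0.0294% to 0.0897% of NS-Sham libraries, 7.87% to 11% of NS-I/R libraries and 1.31% to 5.03% of Enpa-I/R libraries. Values below are CPM, counts scaled to a common total of the UMIs summed over the nuclei of a class in a library, scaled by library with edgeR's TMM factors unless called plain CPM. Differences are log2 values from edgeR's quasi-likelihood test with p-values adjusted over all genes tested (Benjamini-Hochberg), and a gene is said to have risen or fallen where the adjusted p was under 0.05. Both contrasts use the same NS-I/R libraries. In sums over all nuclei, a change in the number of cells of a type and a change in RNA per cell cannot be told apart.

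All 10 members were higher in NS-I/R than in NS-Sham hearts when all nuclei were summed, with a median log2 difference of 2.22. Of all genes tested, 23.9% rose in that comparison. Mt2 had the largest difference of the 10, 5.76 (SE 0.42, adjusted p = 9.54e-06), followed by Hmox1 at 4.31 and Mt1 at 3.35 (SE 0.29, adjusted p = 2.05e-05). Nqo1 had the smallest, 0.55 (SE 0.19, adjusted p = 0.034, and up to 0.117 without 1 library), and Slc7a11 the next, 1.07 (SE 0.28, adjusted p = 0.01). Within classes, 9 of 10 members rose in cardiomyocyte-like nuclei (median 2.56; 23.6% of all genes rose), 10 of 10 in endothelial-like nuclei (2.22; 17.7%) and 8 of 10 in fibroblast-like nuclei (2.28; 23.4%). All 9 members tested rose in macrophage-like nuclei (3.39; 17.9%), and 6 of 6 in pericyte-like (2.12; 11.9%). The count was 4 of 6 in lymphatic endothelial-like (3.04; 6.2%) and 5 of 6 in smooth muscle-like nuclei (2.28; 2.58%). Members that are not counted in a class had too few UMIs there to be tested. Slc7a11 in fibroblast-like nuclei was the only called member to fall in any class tested, against 23.4% of all genes that fell there; 21.6%, 16.3% and 16.9% of all genes fell in cardiomyocyte-, endothelial- and macrophage-like nuclei. The median over all genes lay between -0.05 and 0.03 in both contrasts.

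**Figure D1:**
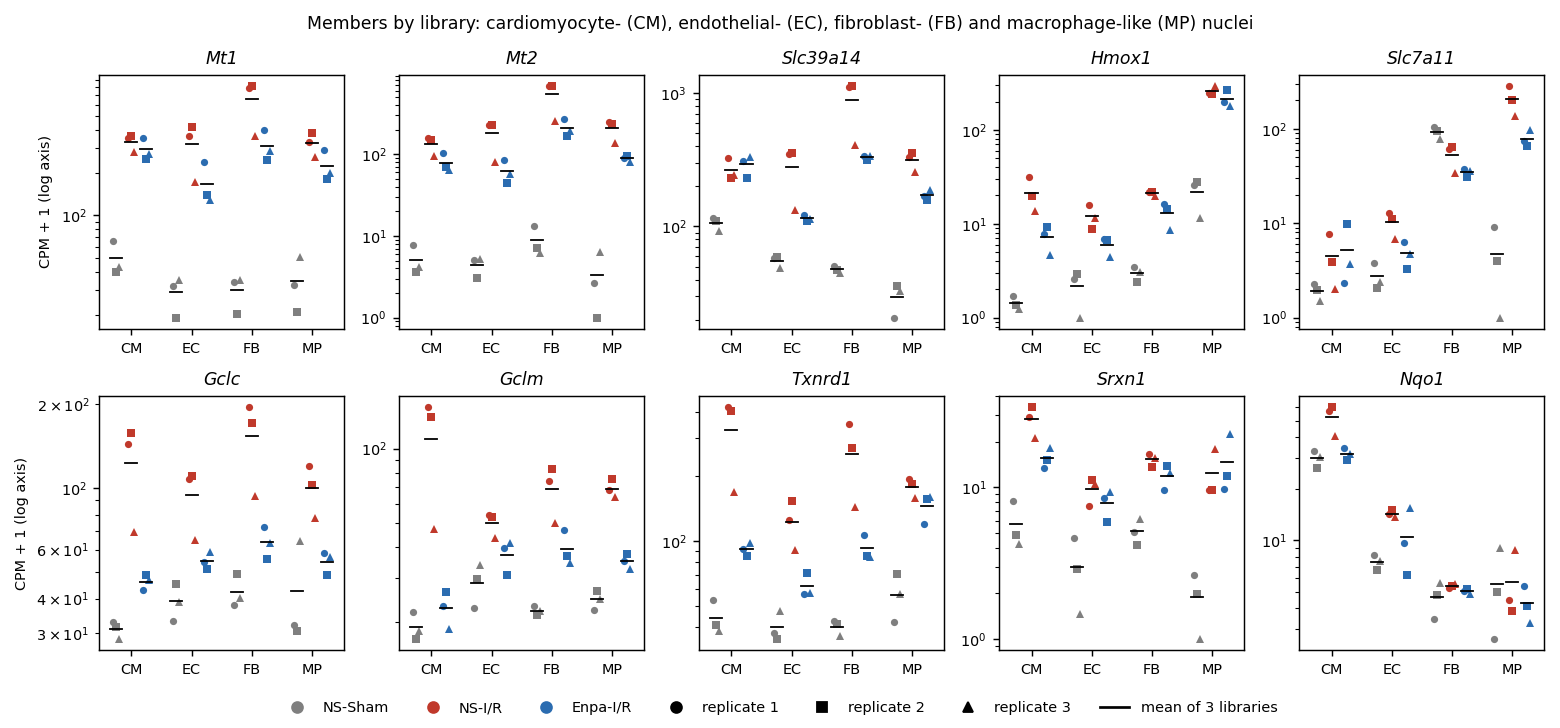
Each panel shows 1 member as CPM + 1 on a log axis in cardiomyocyte-, endothelial-, fibroblast- and macrophage-like nuclei, with 1 point per library, coloured by group, and a black line at the mean of 3 libraries. Every NS-I/R point of Mt1 and Mt2 lies above every NS-Sham point of the same class, while Slc7a11 in fibroblast-like nuclei goes the other way.

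Mt1 and Mt2, the metallothioneins, rose in each of the 7 classes tested. In cardiomyocyte-like nuclei Mt1 stood at 65.1, 39.1 and 42.2 CPM in the 3 NS-Sham libraries and at 348, 359 and 279 CPM in the 3 NS-I/R libraries. The groups did not overlap, and the log2 difference was 2.75 (SE 0.22, adjusted p = 2.13e-05). In endothelial-like nuclei Mt1 went from 30.9, 18.1 and 34.2 to 359, 415 and 171 CPM, a difference of 3.56 (SE 0.36, adjusted p = 2.21e-05). In fibroblast-like nuclei it went from 32.8, 19.3 and 33.9 to 787, 811 and 361 CPM, a difference of 4.56 (SE 0.35, adjusted p = 2.27e-06). The third NS-I/R library was the lowest of its group in each of these classes, yet lay above all NS-Sham libraries. In macrophage-like nuclei Mt1 went from 31.3, 19.8 and 50.3 to 327, 381 and 255 CPM (3.39, SE 0.29, adjusted p = 5.62e-07).

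Mt2 was low in sham hearts and its log2 differences were larger than those of Mt1 in each class. In fibroblast-like nuclei it stood at 12.3, 6.17 and 5.14 CPM in NS-Sham and at 678, 681 and 256 CPM in NS-I/R, a log2 difference of 6.12 (SE 0.45, adjusted p = 1.72e-06). In cardiomyocyte-like nuclei it went from 6.65, 2.59 and 3.20 to 156, 147 and 94.0 CPM (5.04, SE 0.37, adjusted p = 1.32e-05), and in endothelial-like nuclei from 4.02, 2.10 and 4.22 to 229, 230 and 78.7 CPM (5.81, SE 0.50, adjusted p = 6.91e-06). The NS-Sham and NS-I/R libraries were separate in all 3 classes. In macrophage-like nuclei 3 UMIs of Mt2 in NS-Sham stood against 709 in NS-I/R, a ratio of CPM of 141 (95% counting interval 48.1 to 686). In lymphatic endothelial-like nuclei no sham nucleus held a Mt2 UMI while NS-I/R nuclei held 276, which is at least 58.5-fold higher with the floor set at 3 UMIs over the group. In pericyte-like nuclei Mt2 went from 6.35, 0 and 1.84 to 365, 299 and 187 CPM. Mt1 and Mt2 are close paralogs, and how reads that match both were assigned is not given in the sources used here, so the split between them is uncertain.

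The level of the metallothioneins differed between classes after injury. In NS-I/R libraries Mt1 stood at 653 ± 253 CPM (SD, n = 3, as for all means here) in fibroblast-like, 621 ± 109 in smooth muscle-like, 483 ± 247 in lymphatic endothelial-like, 475 ± 84.5 in pericyte-like, 471 ± 181 in neutrophil-like, 328 ± 43.4 in cardiomyocyte-like, 321 ± 63 in macrophage-like and 315 ± 128 CPM in endothelial-like nuclei. Each neighbouring pair in that order differed by less than the larger SD of the pair. Counted as UMIs per nucleus instead, the order changed, since nuclei of the classes held different amounts of RNA: Mt1 gave 3.58 ± 0.752 UMIs per cardiomyocyte-like nucleus, 2.58 ± 0.975 per fibroblast-like nucleus, 0.803 ± 0.171 per macrophage-like nucleus and 0.703 ± 0.303 per endothelial-like nucleus. Median UMIs per NS-I/R nucleus were 8428, 3202.5, 2080 and 1690.5 in these 4 classes. Mesothelial-like nuclei, of which NS-I/R hearts gave 51, stood apart with Mt1 at 3276, 10705 and 971 plain CPM against 66.4, 26.9 and 13.6 plain CPM in NS-Sham. In the second NS-I/R library 1 nucleus held 1260 of the 1489 Mt1 UMIs of that class. Without the highest nucleus of each library the NS-I/R values were 2705, 2258 and 865 plain CPM, still above each NS-Sham value. This class had too few nuclei to be tested. Other small classes were left out of the order above. Among them, in NS-I/R hearts, 36 adipocyte-like nuclei held 237 Mt1 UMIs and 119 Schwann cell-like nuclei held 271.

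**Figure D2:**
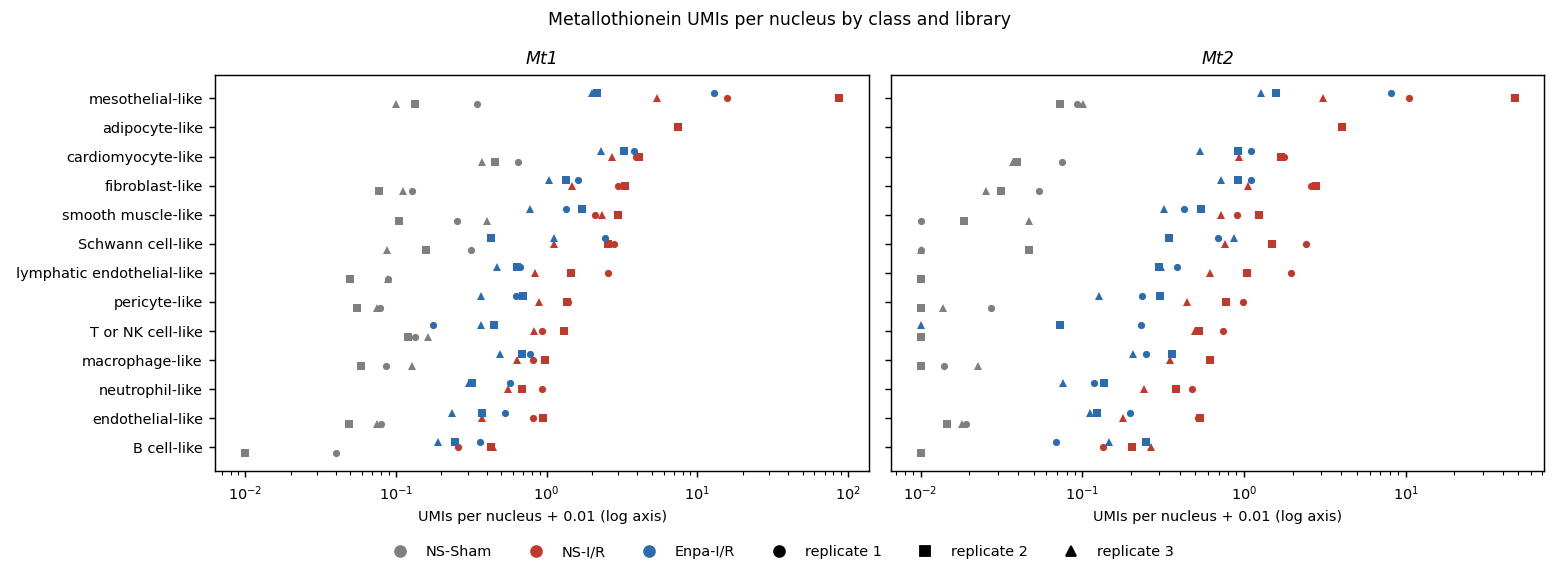
Mt1 and Mt2 are plotted as UMIs per nucleus + 0.01 on a log axis for 13 classes, 1 point per library, coloured by group; groups of under 25 nuclei and libraries of under 5 nuclei are left out. NS-I/R and Enpa-I/R points lie above the NS-Sham points in the large classes, and the highest point of each gene is a mesothelial-like NS-I/R library.

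Slc39a14, the metal importer, rose in each of the 7 classes, most in fibroblast-like nuclei. There it stood at 49.7, 46.6 and 44.2 CPM in NS-Sham and at 1116, 1124 and 410 CPM in NS-I/R, a log2 difference of 4.23 (SE 0.33, adjusted p = 2.39e-06). The first and second NS-I/R libraries were close to each other and the third was well below them, with no overlap with NS-Sham. In cardiomyocyte-like nuclei, which had the highest sham level of the 4 large classes, it went from 115, 110 and 90.9 to 322.5, 230 and 240 CPM, a difference of 1.33 (SE 0.18, adjusted p = 0.000344). In macrophage-like nuclei it went from 19.8, 34.6 and 31.8 to 333, 351 and 255 CPM (3.42, SE 0.22, adjusted p = 4.34e-08), and in endothelial-like nuclei from 56.6, 57.7 and 47.8 to 346, 355 and 131 CPM (2.35, SE 0.29, adjusted p = 8.61e-05). Lymphatic endothelial-like nuclei reached 1059, 1124 and 529 CPM from 60.6, 96.4 and 40.8.

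Hmox1, the haem oxygenase, had its highest level in macrophage-like nuclei in both saline groups. It stood there at 24.7, 26.7 and 10.6 CPM in NS-Sham and at 244, 237 and 291 CPM in NS-I/R, a log2 difference of 3.51 (SE 0.25, adjusted p = 1.05e-07). Here the third NS-I/R library was the highest of its group. In cardiomyocyte-like nuclei Hmox1 went from 0.688, 0.362 and 0.246 to 30.2, 18.7 and 12.6 CPM, a difference of 5.56 (SE 0.50, adjusted p = 3.71e-05) that rests on 14 UMIs in 3297 sham nuclei. Hmox1 also rose in fibroblast-like nuclei, from 2.46, 1.39 and 2.06 to 20.8, 20.9 and 18.9 CPM (3.43, SE 0.34, adjusted p = 1.14e-05), and in endothelial-like nuclei, from 1.61, 1.89 and 0 to 15, 7.86 and 10.6 CPM (3.00, SE 0.50, adjusted p = 0.000693). In NS-I/R the mean level was 257 ± 29.4 CPM in macrophage-like nuclei, and the next highest named class was adipocyte-like, with 36 nuclei and 48.6 ± 55.4 CPM. In small classes the counts were few: 3 against 21 UMIs in pericyte-like nuclei (ratio of CPM 8.50, 95% counting interval 2.54 to 44.5) and 1 against 24 in lymphatic endothelial-like nuclei (15.3, interval 2.49 to 628).

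Slc7a11, the cystine importer, was the member whose direction depended on the class. In macrophage-like nuclei it stood at 8.23, 2.97 and 0 CPM in NS-Sham and at 282, 201 and 135 CPM in NS-I/R, a log2 difference of 5.64 (SE 0.45, adjusted p = 3.21e-07). In fibroblast-like nuclei, which held 871 of its 936 UMIs in sham hearts, it fell from 102, 93.7 and 77.6 to 60.1, 63.3 and 33.2 CPM, a difference of -0.81 (SE 0.21, adjusted p = 0.00817). The groups did not overlap in either class. The summed plain CPM of 10 neutrophil markers in macrophage-like nuclei went from 71.7 to 127 in sham libraries to 453 to 1027 in NS-I/R libraries, and its part in the Slc7a11 value was not tested. In endothelial-like nuclei low levels rose from 2.81, 1.05 and 1.41 to 11.7, 10.2 and 5.79 CPM (2.46, SE 0.46, adjusted p = 0.00156). Cardiomyocyte-like nuclei held 1.26, 0.965 and 0.493 against 6.74, 2.90 and 1.03 CPM, which did not pass (1.93, SE 0.82, adjusted p = 0.0762). Neutrophil-like nuclei of NS-I/R hearts, a class that may include mixed nuclei, held 478, 333 and 52.9 CPM. They were almost lacking in NS-Sham, so no sham value was tested there.

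Gclc and Gclm, the subunits that begin glutathione synthesis, rose in the 4 large classes. In cardiomyocyte-like nuclei Gclm went from 21.0, 16.1 and 17.4 to 146, 134 and 46.3 CPM (log2 difference 2.59, SE 0.37, adjusted p = 0.000406) and Gclc from 31.9, 30.6 and 27.7 to 142, 156 and 68.1 CPM (2.02, SE 0.26, adjusted p = 0.000241). The third NS-I/R library was again the lowest and remained above NS-Sham. In endothelial-like nuclei Gclm went from 21.7, 28.8 and 32.8 to 53.0, 52.1 and 42.6 CPM, a smaller difference of 0.83 (SE 0.18, adjusted p = 0.00367), and Gclc had a difference of 1.27 (SE 0.20, adjusted p = 0.000405). In fibroblast-like nuclei the differences were 1.68 (SE 0.21, adjusted p = 5.73e-05) for Gclm and 1.86 (SE 0.24, adjusted p = 8.63e-05) for Gclc. In macrophage-like nuclei they were 1.5 (SE 0.22, adjusted p = 9.96e-05) and 1.36 (SE 0.27, adjusted p = 0.00105). Neither passed in lymphatic endothelial-like nuclei, with 1.01 for Gclm (adjusted p = 0.154) and 1.22 for Gclc (adjusted p = 0.0859).

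Txnrd1, the cytosolic thioredoxin reductase, rose in each of the 7 classes. In cardiomyocyte-like nuclei it stood at 52.4, 39.7 and 37.3 CPM in NS-Sham and at 418, 400 and 168 CPM in NS-I/R, a log2 difference of 2.93 (SE 0.31, adjusted p = 8.19e-05). In fibroblast-like nuclei it went from 41.5, 40.2 and 35.5 to 348, 271 and 144 CPM (2.69, SE 0.27, adjusted p = 1.32e-05). In endothelial-like nuclei it went from 36.5, 34.2 and 46.4 to 125, 152 and 89.6 CPM (1.66, adjusted p = 5.75e-05), and in macrophage-like nuclei from 41.2, 69.2 and 55.6 to 193, 184 and 157 CPM (1.65, SE 0.21, adjusted p = 2.45e-05). No NS-I/R library overlapped NS-Sham in these 4 classes.

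Srxn1 and Nqo1 had lower counts. Srxn1, which repairs peroxiredoxins, went from 7.10, 3.86 and 3.20 to 28.3, 32.9 and 20.2 CPM in cardiomyocyte-like nuclei (log2 difference 2.54, SE 0.30, adjusted p = 0.000144). Within cluster 14 of these nuclei, which all 3 groups filled, the Srxn1 difference was 0.555 and did not pass (adjusted p = 0.436). In macrophage-like nuclei it counted 2 UMIs in NS-Sham against 41 in NS-I/R (ratio of CPM 12.2, 95% counting interval 3.18 to 104). Nqo1, the quinone reductase, had 944 of its 1100 NS-Sham UMIs in cardiomyocyte-like nuclei. It stood there at 32.1, 25.5 and 29.7 CPM in NS-Sham and 56.0, 58.8 and 39.5 CPM in NS-I/R (0.83, SE 0.17, adjusted p = 0.00332). As CPM it was not highest in that class, since lymphatic endothelial-like NS-Sham nuclei, with 19 UMIs, held 38.2 ± 27.1 CPM. In fibroblast-like nuclei Nqo1 stood at 2.46, 3.78 and 4.63 against 4.26, 4.36 and 4.57 CPM, groups that overlapped, and did not pass (adjusted p = 0.492). It was not tested in macrophage-like nuclei.

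**Figure D3:**
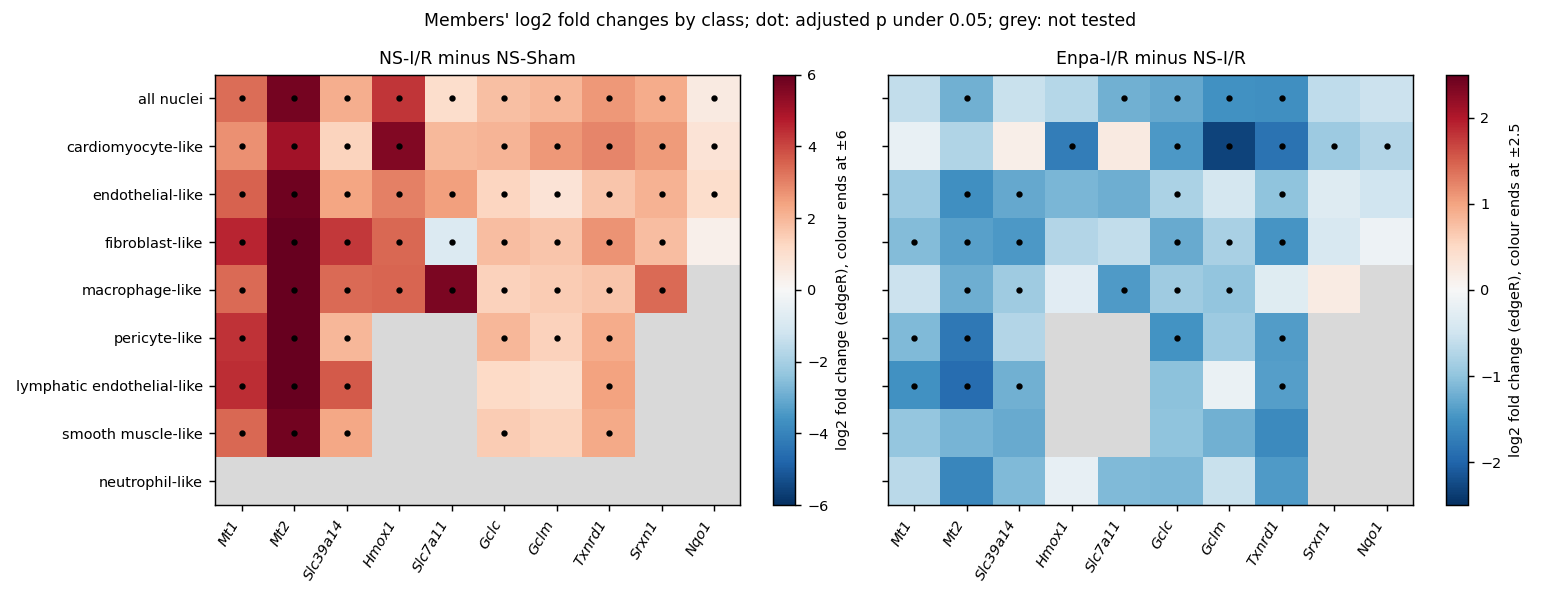
Heat maps give the log2 difference of each member in all nuclei and in 8 classes, for NS-I/R minus NS-Sham (colours end at ±6) and, beside it, for Enpa-I/R minus NS-I/R (colours end at ±2.5), with a dot where the adjusted p was under 0.05 and grey where a gene or class was not tested. All dots of the first map but that of Slc7a11 in fibroblast-like nuclei are on the higher side, and every dot of the second is on the lower side.

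The size of the change after injury differed between classes for some members, in a fit with a term for each class by group and a block for the library. Against endothelial-like nuclei, 6 of 10 members differed in cardiomyocyte-like nuclei, 4 in fibroblast-like and 1 in macrophage-like nuclei, where 15.5%, 10.2% and 9.85% of all 15597 genes tested did so in either direction. In cardiomyocyte-like nuclei the changes of Gclm, Hmox1, Txnrd1 and Gclc were larger and those of Mt1 and Slc39a14 smaller. For Gclm the difference of the log2 differences was 1.609 (SE 0.288, adjusted p = 0.000167). In fibroblast-like nuclei Slc7a11 had the difference of the largest size, -3.311 (SE 0.671, adjusted p = 0.00115), and Slc39a14 the largest above 0, 1.858 (SE 0.278, adjusted p = 3.13e-05). The larger value of Slc7a11 in macrophage-like nuclei did not pass in this fit (3.22, SE 1.11, adjusted p = 0.0627). Leaving out 1 library at a time gave 2 to 6 members for cardiomyocyte-like nuclei, 3 to 6 for fibroblast-like and 0 to 2 for macrophage-like nuclei.

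The share of nuclei with at least 1 UMI of a member was compared after each nucleus was thinned to 1000 UMIs. Mt1 was found in 5.58% ± 2.46 of cardiomyocyte-like nuclei of NS-Sham, 28.6% ± 3.55 of NS-I/R and 23.2% ± 4.08 of Enpa-I/R hearts (SD, n = 3), and in 2.27%, 39.4% and 24.0% of fibroblast-like nuclei. Without thinning, the shares were 29.1%, 77.1% and 71.5% in cardiomyocyte-like and 7.39%, 65.1% and 50.7% in fibroblast-like nuclei. Slc39a14 was found in 3.97%, 42.9% and 19.4% of thinned fibroblast-like nuclei. Hmox1 was found in 2.23%, 14.2% and 10.8% of thinned macrophage-like nuclei, against 0.175%, 1.09% and 0.353% of endothelial-like nuclei, a class in which it was scarce. Slc7a11 was found in 0.155%, 11.0% and 5.01% of macrophage-like nuclei, against 0.232%, 1.12% and 0.390% of endothelial-like nuclei. In cardiomyocyte-like nuclei the thinned share of Hmox1, 0.0848%, 1.78% and 0.415%, was near that of endothelial-like nuclei. Thinning left out 53, 24 and 34 cardiomyocyte-like, 691, 688 and 728 endothelial-like, 151, 175 and 116 fibroblast-like and 103, 189 and 109 macrophage-like nuclei with fewer UMIs in the 3 groups. With 3 libraries against 3 the exact two-sided permutation test can give no p below 0.1, and over the 140 tests made the smallest adjusted p was 0.154.

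Enpatoran-treated hearts were compared with NS-I/R hearts next, the comparison that asks what differed with the drug in injured hearts. Summed over all nuclei, Gclm, Txnrd1, Gclc, Slc7a11 and Mt2 fell, 5 of 10 members, where 8.74% of all genes fell. The median log2 difference of the members was -0.96, and all 10 were below 0. Gclm differed by -1.52 (SE 0.26, adjusted p = 0.0101), Txnrd1 by -1.54 (SE 0.26, adjusted p = 0.0101) and Gclc by -1.28 (SE 0.24, adjusted p = 0.014). Slc7a11 differed by -1.20 (SE 0.28, adjusted p = 0.0235) and Mt2 by -1.21 (SE 0.34, adjusted p = 0.0373), but the Mt2 groups overlapped, at 288, 304 and 134 CPM in NS-I/R and 138, 86.8 and 89.6 CPM in Enpa-I/R. Mt1 did not pass (-0.61, SE 0.26, adjusted p = 0.128), with 446, 527 and 278 CPM against 355, 218 and 245 CPM. The count depended on single libraries: it was 2 without the first NS-I/R library, 3 without the second, 9 without the third, and 2, 3 and 0 without the Enpa-I/R libraries in order.

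By class, 6 of 10 members fell with enpatoran in cardiomyocyte-like nuclei (median -0.83; 11.3% of all genes fell), 4 of 10 in endothelial-like (-0.96; 3.37%), 6 of 10 in fibroblast-like (-0.95; 5.85%) and 5 of 9 in macrophage-like nuclei (-0.88; 3.35%). In the smaller classes 4 of 6 fell in pericyte-like (-1.25; 2.79%) and 4 of 6 in lymphatic endothelial-like nuclei (-1.30; 0.453%). For smooth muscle-like nuclei edgeR called 0 of 6 (-1.19; 0.0% of all genes fell), with 5 at an unadjusted p under 0.05 and 2 called by DESeq2. In neutrophil-like nuclei, fitted on the 6 I/R libraries alone, edgeR called 0 of 8 (median -1.10, with 0.461% of all genes lower). Of these, 4 had an unadjusted p under 0.05 and 2 were called by DESeq2. No member rose in any class, where 7.65%, 2.66%, 3.7% and 2.89% of all genes rose in cardiomyocyte-, endothelial-, fibroblast- and macrophage-like nuclei.

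These counts, too, rested on single libraries. In cardiomyocyte-like nuclei 3 members were called without the first NS-I/R library, 3 without the second, 2 without the first Enpa-I/R library and 0 without the third. In endothelial-like nuclei the count was 1 and 0 without the first or second NS-I/R library, 7 without the third, and 1, 1 and 0 without the Enpa-I/R libraries in order. In fibroblast-like nuclei it was 0 and 1 without the first or second NS-I/R library and 0 without any 1 Enpa-I/R library, and in macrophage-like nuclei it was 3 without the second Enpa-I/R library. Lymphatic endothelial-like nuclei gave 0 or 2 calls without the first or second NS-I/R library and 2, 0 and 0 without the Enpa-I/R libraries in order. Pericyte-like nuclei gave 2 without the first or the third Enpa-I/R library. Without the third NS-I/R library smooth muscle-like nuclei gave 4 and neutrophil-like nuclei 6. When only the 6 libraries of the contrast were fitted, the count came to 2 for all nuclei and to 3, 1 and 0 for cardiomyocyte-, endothelial- and fibroblast-like nuclei. In that fit 19 of 34 calls were kept, and none was lost in macrophage-, pericyte- or lymphatic endothelial-like nuclei. The share of all genes called is not given for the fits with fewer libraries. Whether members lost more calls than other genes is therefore not shown.

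In cardiomyocyte-like nuclei Gclm, Txnrd1, Gclc, Hmox1, Srxn1 and Nqo1 fell with enpatoran. Mt1, Mt2, Slc39a14 and Slc7a11 did not pass, the last at 0.22 (SE 0.71, adjusted p = 0.842). Gclm was at 22.1, 25.4 and 17.8 CPM in Enpa-I/R against 146, 134 and 46.3 CPM in NS-I/R, a log2 difference of -2.32 (SE 0.36, adjusted p = 0.00919). The Enpa-I/R libraries lay in the range of the NS-Sham libraries or just above it. Txnrd1 was at 91.1, 84.7 and 97.6 CPM, below all NS-I/R and above all NS-Sham libraries (-1.85, SE 0.29, adjusted p = 0.00937). Gclc was at 41.9, 47.7 and 45.6 CPM (-1.44, SE 0.25, adjusted p = 0.0114) and Nqo1 at 33.5, 28.4 and 30.7 CPM (-0.74, SE 0.17, adjusted p = 0.0218). Hmox1 was at 6.68, 8.26 and 3.70 CPM (-1.72, SE 0.36, adjusted p = 0.0166) and Srxn1 at 12.4, 14.2 and 17.1 CPM (-0.90, SE 0.27, adjusted p = 0.0431). In cluster 14 alone the Srxn1 difference was 0.398, on the higher side (adjusted p = 0.564), and those of Hmox1 (-1.08, adjusted p = 0.208) and Txnrd1 (-0.82, adjusted p = 0.0503) did not pass. Mt1 was at 352, 248 and 271 CPM, overlapping NS-I/R (-0.18, SE 0.21, adjusted p = 0.558), and Slc39a14 at 307, 231 and 333 CPM (0.14, SE 0.18, adjusted p = 0.602). Mt2 was at 102, 69.5 and 62.4 CPM (-0.76, SE 0.30, adjusted p = 0.0955).

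In fibroblast- and endothelial-like nuclei Mt2 and Slc39a14 were among the genes that fell. In fibroblast-like nuclei Slc39a14 was at 336, 312 and 335 CPM in Enpa-I/R against 1116, 1124 and 410 CPM in NS-I/R (-1.43, SE 0.28, adjusted p = 0.0174). Mt2 was at 269, 165 and 194 CPM (-1.36, SE 0.32, adjusted p = 0.0277) and Mt1 at 395, 243 and 281 CPM (-1.09, SE 0.29, adjusted p = 0.0361). The first Enpa-I/R library overlapped the third NS-I/R library for both metallothioneins, and no library overlapped for Slc39a14. Txnrd1 (-1.47, SE 0.25, adjusted p = 0.0134), Gclc (-1.27, SE 0.23, adjusted p = 0.0147) and Gclm (-0.81, SE 0.19, adjusted p = 0.027) also fell there. In endothelial-like nuclei Mt2 was at 84.3, 43.4 and 56.7 CPM (-1.53, SE 0.34, adjusted p = 0.0254), with the first Enpa-I/R library above the third NS-I/R library. Slc39a14 there was at 121, 108 and 113 CPM (-1.28, SE 0.28, adjusted p = 0.0226), Txnrd1 differed by -1.01 (SE 0.19, adjusted p = 0.013) and Gclc by -0.79 (SE 0.19, adjusted p = 0.034).

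Among macrophage-like nuclei Slc7a11 was at 73.9, 64.6 and 95 CPM with enpatoran against 282, 201 and 135 CPM without it (-1.41, SE 0.27, adjusted p = 0.00615). Mt2 was at 89.8, 93.3 and 80.3 CPM (-1.23, SE 0.24, adjusted p = 0.00731), Slc39a14 at 168, 156 and 185 CPM (-0.88, SE 0.17, adjusted p = 0.00731), Gclm at 34.3, 36.6 and 31.7 CPM (-0.98, SE 0.19, adjusted p = 0.00798) and Gclc at 57.2, 47.5 and 55.4 CPM (-0.89, SE 0.24, adjusted p = 0.0364). For these 5 genes no Enpa-I/R library reached the lowest NS-I/R library. Hmox1 was at 195, 261 and 176 CPM, overlapping NS-I/R (-0.28, SE 0.19, adjusted p = 0.411), and Txnrd1 at 119, 156 and 159 CPM (-0.30, SE 0.18, adjusted p = 0.355). In pericyte-like nuclei Mt2 fell by 1.78, Gclc by 1.5, Txnrd1 by 1.40 and Mt1 by 1.11 on the log2 scale, with adjusted p-values of 0.00615, 0.00918, 0.0116 and 0.00615. With the mitochondrial limit at 20% the Mt1 value there was -0.618 and did not pass (adjusted p = 0.192). In lymphatic endothelial-like nuclei Mt2 fell by 1.91, Mt1 by 1.52, Txnrd1 by 1.38 and Slc39a14 by 1.21, with adjusted p-values of 0.00813, 0.0136, 0.0493 and 0.0227.

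The enpatoran difference itself was compared between classes in the same fit with class by group terms. Against endothelial-like nuclei, 3 of 10 members differed in cardiomyocyte-like nuclei, where 5.3% of all genes did. Gclm fell further there, by a difference of -1.758 (SE 0.28, adjusted p = 0.000344), while the differences were less negative or above 0 for Slc39a14 (1.32, SE 0.256, adjusted p = 0.00232) and Mt1 (0.722, SE 0.214, adjusted p = 0.0437). For fibroblast-like and macrophage-like nuclei edgeR called 0 of 10 members, with 1 (Gclc) and 2 (Hmox1 and Txnrd1) at an unadjusted p under 0.05, where 0.468% and 1.33% of all genes were called. Leaving out 1 library at a time gave 2 to 6 members for cardiomyocyte-like nuclei, 0 for fibroblast-like and 0 to 2 for macrophage-like nuclei.

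Different clusters held most of a class in different groups. Among cardiomyocyte-like nuclei cluster 1 held 65.5%, 2.24% and 17.9% of the nuclei of the sham, saline and enpatoran groups, cluster 24 held 0.0607%, 50.6% and 19.9%, and cluster 14 held 20.5%, 36.4% and 46.2%. Cluster 22 of the fibroblast-like nuclei held 0.3%, 60.5% and 37.1%, cluster 18 of the endothelial-like nuclei 0.4%, 31.4% and 12.4%, and cluster 12 of the macrophage-like nuclei 6.6%, 51.9% and 38.8%. The members were therefore also read within 1 cluster per class, the one whose smallest share over the 3 groups was largest. These were clusters 14, 3, 4 and 6 for cardiomyocyte-, endothelial-, fibroblast- and macrophage-like nuclei. Their shares still differed between groups, most for cluster 4, with 87.8%, 25.8% and 48.5%. In cluster 14 plain CPM of Txnrd1 was 49.2 ± 12, 134 ± 23.2 and 76.9 ± 7.24 in the sham, saline and enpatoran groups, and Gclm was 19.0 ± 4.26, 64.1 ± 12.4 and 17.3 ± 2.5. Mt2 in that cluster was 5.83 ± 0.748, 90.6 ± 10.1 and 74.0 ± 15.2, and Slc39a14 was 108 ± 7.55, 203 ± 7.45 and 289 ± 38.5. Cluster 24 had higher Txnrd1, 477 ± 176 in NS-I/R hearts and 154 ± 27.1 with enpatoran. Within these clusters 3 members fell with enpatoran in cardiomyocyte-like (cluster 14), 0 in fibroblast-like (cluster 4) and 2 in macrophage-like nuclei (cluster 6). After injury 5 members rose in endothelial-like nuclei (cluster 3), where some members had too few UMIs to be tested. Over all of these clusters 8 of 21 enpatoran calls were kept, among them most of those in endothelial-like nuclei (cluster 3). The share of all genes called is not given for these fits, so whether members lost more calls than other genes is not shown. The members were kept out of the genes used for clustering, and a level by cluster is given as a description.

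**Figure D4:**
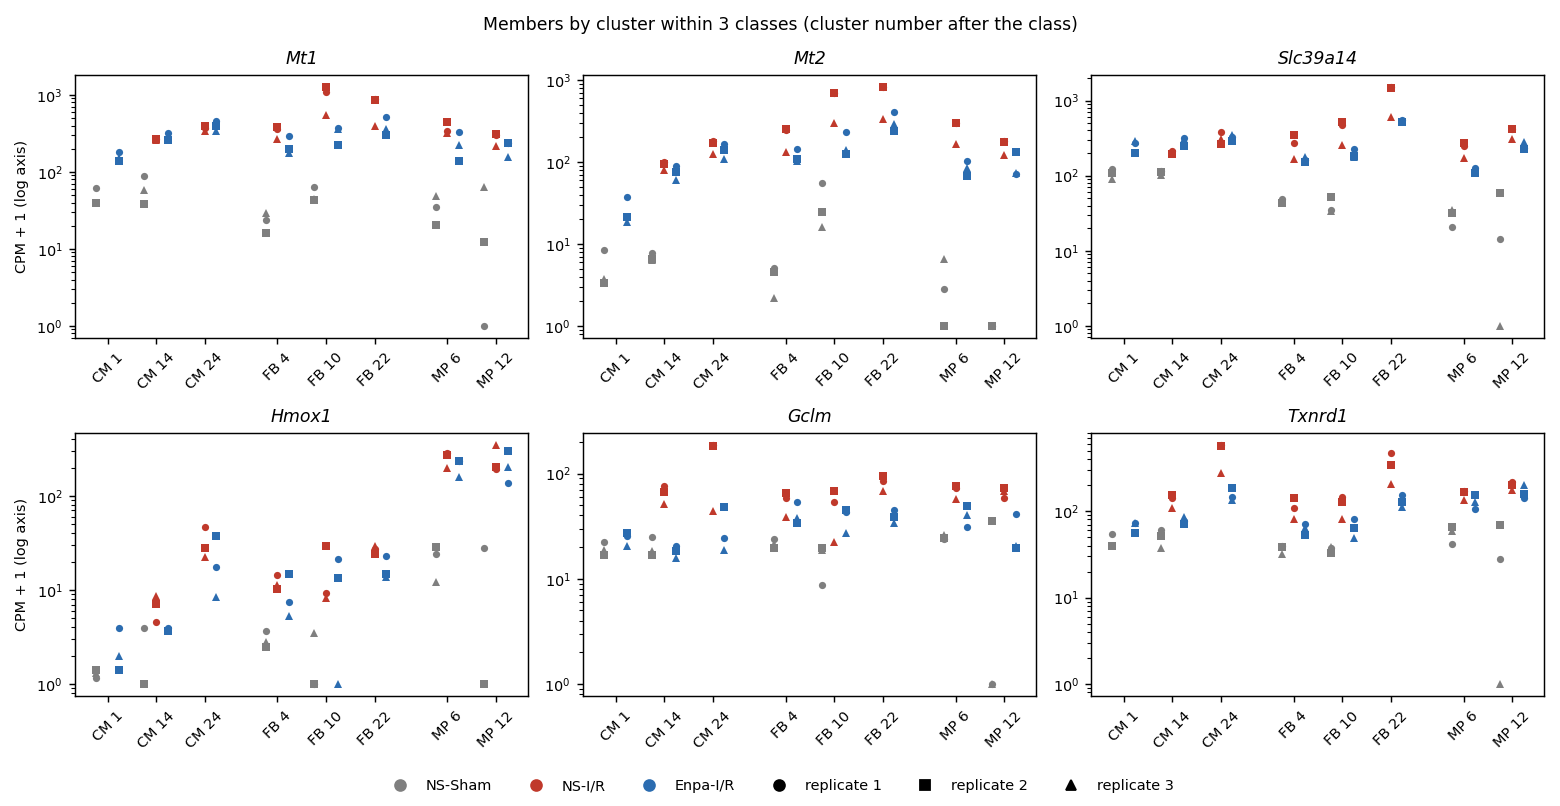
Plain CPM + 1 on a log axis is shown by library for 6 members. The clusters are 1, 14 and 24 (cardiomyocyte-like), 4, 10 and 22 (fibroblast-like) and 6 and 12 (macrophage-like). A group is left out where a library had fewer than 10 nuclei. Mt1, Mt2 and Slc39a14 are above NS-Sham in NS-I/R within clusters 14, 4, 10 and 6, and Gclm of Enpa-I/R in cluster 14 lies at the NS-Sham level.

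Within the other classes, cluster 10 of the fibroblast-like nuclei, held at 11.9%, 13.6% and 14.4%, had Mt1 at 49.1 ± 11.6, 978 ± 378 and 318 ± 83 plain CPM, so the metallothionein difference was not limited to cluster 22, where Mt1 was 711 ± 278 in NS-I/R hearts and 391 ± 110 with enpatoran. Slc39a14 in cluster 4 was 44.6 ± 2.69, 261 ± 89.8 and 164 ± 14.6. Slc7a11 in the macrophage-like nuclei of cluster 12 was 335 ± 137 in NS-I/R hearts and 148 ± 50.7 with enpatoran, against 65.8 ± 35.8 and 30.2 ± 8.85 in cluster 6. Hmox1 differed between these clusters by less than its SD, at 247 ± 88.7 in cluster 12 and 251 ± 46.2 in cluster 6 of NS-I/R. In fibroblast-like nuclei of cluster 4 Slc7a11 was 87.6 ± 13.1, 48.4 ± 2.98 and 43.4 ± 13.9 in the 3 groups.

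RNA of other cell types moved with the groups. The neutrophil markers in macrophage-like nuclei, of which S100a8, Retnlg and Trem1 were at 0 in NS-Sham, summed to 250 to 297 plain CPM with enpatoran, against 5595 to 7329 in NS-I/R neutrophil-like nuclei. In endothelial-like nuclei the sum in the sham, saline and enpatoran groups was 18.1 to 20.4 (S100a8 at 0), 166 to 276 and 66.0 to 88.9, in cardiomyocyte-like nuclei 6.59 to 12.4 (Retnlg at 0), 40.4 to 113 and 38.3 to 60.2, and in fibroblast-like nuclei 25.3 to 26.1 (Trem1 at 0), 86.0 to 201 and 46.0 to 52.4. Macrophage markers in cardiomyocyte-like nuclei, where Hmox1 rose, summed to 19.8 to 24.3, 31.0 to 39.3 and 27.5 to 49.5, against 10250 to 11410 in NS-I/R macrophage-like nuclei. Cardiomyocyte markers in endothelial-like nuclei went the other way, 5981 to 6301, 2831 to 3381 and 3682 to 5085, and in cardiomyocyte-like nuclei themselves they were 68518 to 73370, 44170 to 57689 and 62679 to 68555. The part of these values in the results above was not tested. In all nuclei all 10 members were still higher in NS-I/R, and the same 5 were still lower in Enpa-I/R, when neutrophil-like nuclei and those of the unnamed cluster 25, whose leading genes encode heat-shock proteins, were left out.

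Other genes of the pathways were counted from 9 lists, which were also chosen with earlier results of these data known. Of the zinc transporters and regulators, 7 of 11 tested rose and 0 fell in cardiomyocyte-like nuclei of NS-I/R hearts (median log2 0.82), where edgeR called 23.6% of all genes higher. Counts in endothelial-, fibroblast- and macrophage-like nuclei were 7, 6 and 3 of 11 higher and 1, 0 and 1 lower, where 17.7%, 23.4% and 17.9% of all genes rose and 16.3%, 23.4% and 16.9% fell. Slc39a7, which moves zinc out of the endoplasmic reticulum, had a difference of 1.36 in cardiomyocyte-like nuclei. Among the 6 enzymes that supply NADPH, 3 rose and 1 fell there (median 1.14). Pgd, of the pentose phosphate pathway, went from 5.62 ± 0.673 to 41.2 ± 21.8 CPM (2.86, SE 0.39, adjusted p = 0.000326) and Taldo1, of the same pathway, from 10.5 ± 1.11 to 50.9 ± 15 CPM (2.28, SE 0.21, adjusted p = 4.39e-05), while Idh1 fell. Of the 13 glutathione genes tested, 3 rose and 0 fell (median 0.14), among them Gsr, glutathione reductase, from 30.4 ± 1.49 to 85.1 ± 23.8 CPM (1.48, SE 0.20, adjusted p = 0.000269). Of the 12 thioredoxin and peroxiredoxin genes, 2 rose and 0 fell (median 0.38), Txn1 and Prdx6, the latter from 53.1 ± 3.79 to 218 ± 125 CPM (2.04, SE 0.39, adjusted p = 0.00203). Further NRF2 targets split, with 4 of 9 higher and 2 lower (median 0.80). Lrp8, a receptor for the selenium carrier selenoprotein P, rose from 1.37 to 50.1 ± 30 CPM and Abcc4, an export pump, fell from 40.8 to 12.4 CPM. NRF2 and its regulators had 3 of 9 higher and 1 lower (0.47). Among them Keap1 and Sqstm1 rose and Bach1, the repressor of Hmox1, fell from 96.8 to 61.1 CPM. The haem and iron list had 3 of 12 higher and 2 lower, and the oxidant producers 3 of 5 higher (1.79).

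The lists were counted in the same way with enpatoran. In cardiomyocyte-like nuclei, in which 11.3% of all genes fell, 3 of 6 NADPH enzymes fell and 0 rose (median -0.76), namely Pgd to 9.55 ± 0.21 CPM (-2.11, adjusted p = 0.0114), Taldo1 to 16.7 ± 0.528 CPM (adjusted p = 0.00604) and Me1, malic enzyme, from 180 ± 63.3 to 78.3 ± 0.549 CPM (-1.20, adjusted p = 0.0142). Further NRF2 targets had 6 of 9 lower and 1 higher (median -0.86), the glutathione list 3 lower and 1 higher of 13 (0.14), and the zinc list 4 lower and 0 higher of 11 (-0.44). Prdx6 fell to 46.3 ± 3.08 CPM (-2.23, adjusted p = 0.0112) and Gsr to 36.4 ± 1.68 CPM (-1.23, adjusted p = 0.00937). Of the NRF2 regulators, 2 of 9 fell (median -0.50), Keap1 by 0.73 (adjusted p = 0.0254) and Sqstm1, which binds KEAP1 protein (adjusted p = 0.0245). Of the thioredoxin list 2 fell, Prdx6 and Txn1, and of the haem and iron list 2 of 12. In endothelial-like nuclei 1 glutathione gene, Gsr, and 2 haem and iron genes fell, where 3.37% of all genes did. In fibroblast-like nuclei, with 5.85% of all genes lower, 3 of 12 glutathione, 2 of 12 thioredoxin and 2 of 12 haem and iron genes fell. In macrophage-like nuclei, with 3.35% lower, 2 of 8 glutathione genes fell.

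In macrophage-like nuclei glutathione reductase and the iron genes changed. Gsr went from a sham level of 40.3 ± 18.2 CPM to 462 ± 38.3 in NS-I/R (adjusted p = 5.59e-08) and was 165 ± 26.3 with enpatoran (-1.48, SE 0.19, adjusted p = 0.000829). Of 11 haem and iron genes tested, 4 rose and 4 fell after injury (median -0.07), in a class where 17.9% of all genes rose and 16.9% fell. Fth1, the ferritin heavy chain, rose from 209 to 581 ± 113 CPM (1.49), whereas Slc40a1, the iron exporter ferroportin, fell from 88.3 ± 19.7 to 13.8 CPM (-2.62, adjusted p = 4.88e-05). Blvrb, a biliverdin reductase, fell from 157 to 57.5 CPM and was higher again with enpatoran, at 108 CPM (0.91, adjusted p = 0.0394). Of the 5 superoxide and peroxide enzymes in fibroblast-like nuclei, 1 rose and 1 fell (median 0.01), where 23.4% of all genes rose and 23.4% fell. Sod2, the mitochondrial superoxide dismutase, went from 54.0 to 126 CPM (1.24) and was 59.4 CPM with enpatoran (-1.08), and Ephx1, an epoxide hydrolase, fell from 114 to 35 CPM (-1.71).

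The genes whose pattern was most like that of a member were found from 21 class by group means over 9774 genes, by Pearson's r of log2 values, given as a description since classes share libraries. For Mt2 they were Mt1 (0.971), Rnps1 (0.928), S100a9 (0.922), Bysl (0.916) and Fosl1 (0.915). For Hmox1 they were Slfn1 (0.940), Adam8 (0.938), Clec4d (0.931), Itgam (0.928) and Sirpb1b (0.927). For Txnrd1 they were Map2k3 (0.923), Naa25 (0.901), Nat10 (0.896), Rabggtb (0.894) and Gnl3 (0.893). Among the members themselves, the highest value was that of Mt1 with Mt2, Gclc with Txnrd1 gave 0.893, and Nqo1 with Slc7a11 gave -0.544.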

How the data were processed

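Single-nucleus RNA-seq (10x 3' v3.1 chemistry) was made from flash-frozen, powdered hearts, as 9 libraries. The deposited files are UMI counts per gene and barcode. The submitters' processing notes name Cell Ranger 6.1.1, Seurat and the builds GRCm39 and GRCh38, whereas the file headers name Cell Ranger 8.0.0, so the version is uncertain. No coordinates of those builds were used.

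Nuclei with at least 500 genes and at most 5% mitochondrial UMIs were kept, and doublets were removed by Scrublet score at 0.8% per 1000 nuclei, 133 to 538 per library, since its own threshold marked 0 to 3 nuclei in 7 libraries. Libraries shared 1 to 11 barcodes pairwise. Clusters (scanpy 1.11.5, 2000 variable genes, 30 components, 15 neighbours, Leiden resolution 1) were named from markers, so names are rebuilt and not the submitters'. Counts were summed per class and library where each library of a group had at least 25 nuclei. They were tested with edgeR 4.0.16 (R 4.3.3) in a fit of all 9 libraries, after its filter on low counts. Neutrophil-like nuclei were fitted on the 6 I/R libraries alone. DESeq2 was version 1.42.0. CPM were scaled with TMM factors. The alternatives were DESeq2's test and size factors, no low-count filter, other limits on nuclei, doublets kept, a finer clustering, leaving out each library, the contrast's 6 libraries alone and a replicate block. The fits within 1 cluster per class, the fits without neutrophil-like and unnamed nuclei, and DESeq2 and the block in neutrophil-like nuclei were chosen after seeing the data. Intervals on counts cover counting error only.

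On simulated counts for the enpatoran contrast, 200 genes changed by a log2 of 1 were recovered at 29% in cardiomyocyte-like (13987 genes), 67% in endothelial-like (12421), 52.5% in fibroblast-like (13391) and 39.5% in macrophage-like nuclei (10385). The members, lists and markers were chosen with earlier results of these data known. All members are named, and of each list up to 3 genes per class and contrast with the largest called change and at least 10 CPM; fewer are printed.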

Additional observations from a re-analysis of the deposited data

Results flagged for a closer look

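For 14 members and classes the change differed from that in endothelial-like nuclei by an interaction test (edgeR, class by group with a library block, adjusted over all genes). Each value is the log2 difference of a class minus that of endothelial-like nuclei. For NS-I/R minus NS-Sham in cardiomyocyte-like nuclei the values were 2.456 for Hmox1, 1.609 for Gclm, 1.148 for Txnrd1, 0.645 for Gclc, -0.766 for Mt1 and -0.962 for Slc39a14, with adjusted p-values of 0.0201, 0.000167, 0.00246, 0.0324, 0.024 and 0.0109. In fibroblast-like nuclei they were 1.858 for Slc39a14, 0.983 for Mt1, 0.958 for Txnrd1 and -3.311 for Slc7a11, with adjusted p-values of 3.13e-05, 0.0108, 0.0233 and 0.00115. In macrophage-like nuclei the value for Slc39a14 was 1.2 (adjusted p = 0.0255).

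For Enpa-I/R minus NS-I/R in cardiomyocyte-like nuclei the values were -1.758 for Gclm, 1.32 for Slc39a14 and 0.722 for Mt1, with adjusted p-values of 0.000344, 0.00232 and 0.0437. Over the 14 results, leaving out 1 library lost the call in 26 of 126 fits, and DESeq2 size factors lost 0.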

How the results depend on the processing

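Of 62 calls for injury, 12 of 558 fits without 1 library lost the call. Of 34 calls for enpatoran, 114 of 306 did, 15 of 34 were lost when only the contrast's 6 libraries were fitted, and 12 of 21, with 1 more reversed, within the cluster of each large class best filled in all groups (14, 3, 4 and 6). Within those clusters 32 injury calls could be tested, and those with too few UMIs were left out. Of the 32, 3 were lost, Srxn1 in cardiomyocyte-like (0.555) and fibroblast-like nuclei (1.302) and Gclm in endothelial-like nuclei (0.866). Leaving out 1 library gave 9 to 10 members called for injury in all nuclei, 9 to 10 in cardiomyocyte-like, 9 to 10 in endothelial-like, 9 in fibroblast-like, 4 to 5 in lymphatic endothelial-like, 9 in macrophage-like, 6 to 7 in pericyte-like and 4 to 5 in smooth muscle-like nuclei. For enpatoran the ranges, in the same order, were 0 to 9, 0 to 7, 0 to 7, 0 to 8, 0 to 5, 3 to 6, 2 to 6 and 0 to 4, and 0 to 6 in neutrophil-like nuclei. For differences from endothelial-like nuclei they were 2 to 6, 3 to 6 and 0 to 2 (injury) and 2 to 6, 0 and 0 to 2 (enpatoran) in cardiomyocyte-, fibroblast- and macrophage-like nuclei. With 6 libraries the enpatoran counts were 2 (all nuclei), 3, 1 and 0 (cardiomyocyte-, endothelial-, fibroblast-like), and no call was lost in macrophage-, pericyte- or lymphatic endothelial-like nuclei. Within the 4 clusters the enpatoran counts were 3, 0 and 2 in cardiomyocyte-, fibroblast- and macrophage-like nuclei, and most endothelial-like enpatoran calls were kept. The endothelial-like injury count was 5, where some members called in the whole class were not tested in the cluster. For enpatoran, endothelial-like nuclei gave 7 and smooth muscle-like 4 with no low-count filter, and DESeq2 gave 2 in smooth muscle-like and 2 in neutrophil-like nuclei. No injury call was lost in either setting. The cause of these shifts was not tested, beyond the fewer libraries or nuclei by construction. As the share of all genes called is not given for these fits, the shifts are not shown to be particular to the members.

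Some enpatoran differences, in log2, changed sign. That of Slc7a11 in cardiomyocyte-like nuclei ranged from -0.826 (without Enpa-I/R replicate 2, in which 1 nucleus held 59 of the group's 119 UMIs) to 1.027 without 1 library. It was -0.221 without NS-I/R replicate 3, -0.162 with doublets kept and -0.215 in cluster 14. Without 1 library Gclm in lymphatic endothelial-like nuclei ranged from -0.429 to 0.322 (without NS-I/R replicate 3), Srxn1 in macrophage-like nuclei from -0.218 (without Enpa-I/R replicate 3) to 0.636, and Hmox1 in neutrophil-like nuclei from -0.848 to 0.437 (without Enpa-I/R replicate 1). With doublets kept Srxn1 in macrophage-like nuclei was at -0.0. In cluster 14 Mt1 was at 0.082 and Srxn1 at 0.398, and in cluster 4 Srxn1 was at 0.252. Hmox1 in neutrophil-like nuclei was at 0.047 with the replicate block. Of these, Srxn1 in cardiomyocyte-like nuclei alone had been called.

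Replicate numbers did not pair the samples: deviations of same-numbered libraries correlated at -0.199 to 0.072 over 9 pairs, others at -0.099 to 0.170. With the replicate block, 1 of 34 enpatoran and 1 of 62 injury calls were lost, and neutrophil-like nuclei gave 2.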

Other observations

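Some small classes that were not tested held high levels of a member in few nuclei. In adipocyte-like nuclei of NS-I/R hearts Slc39a14 counted 394 UMIs in 36 nuclei, 30 of them from the second library, where it stood at 1249 plain CPM, and sham hearts gave 9 nuclei of that class, too few to limit its level. In Schwann cell-like nuclei of NS-I/R hearts Gclc counted 362 UMIs in 119 nuclei, 344 of them in the second library (1150 plain CPM against 98.4 and 46.4 in the other libraries). The nuclei with the most Gclc, 10% of them, held 68.2% of those UMIs. In mesothelial-like nuclei Mt2 stood at 2163, 5788 and 554 plain CPM in NS-I/R, against 16.6, 13.5 and 13.6 in NS-Sham and 1047, 282 and 263 in Enpa-I/R. In the second NS-I/R library 630 of the 805 Mt2 UMIs lay in the nucleus that also held 1260 Mt1 UMIs.

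Nuclei of the unnamed cluster 25, whose leading genes encode heat-shock proteins, numbered 299, 99 and 38 in the NS-I/R libraries, 1 in all NS-Sham and 11 in all Enpa-I/R libraries. In NS-I/R they held Mt1 at 481 ± 16.6, Mt2 at 236 ± 62.2, Hmox1 at 114 ± 95.2 and Slc39a14 at 104 ± 22.7 plain CPM (SD, n = 3).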
